A study of Mus musculus with 10 samples.

Results

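The tyrosine phosphatase SHP-1, encoded by Ptpn6, and 9 further tyrosine phosphatase genes of T cells (Ptpn11, Ptpn22, Ptpn2, Ptpn1, Ptpn7, Ptprc, Ptprj, Ptpn12 and Ptpn18) were followed in CD4+CD25+ T cells that had lost 1 or both working copies of Ptpn6. All probe sets that the array annotation assigns to these genes alone were taken, which gave 24 of the 45037 probe sets tested and covered 9 of the 10 genes. The annotation names no probe set for Ptpn7, a phosphatase of MAP kinases, so Ptpn7 was not analysed here. The arrays came from mice homozygous for SHP-1 knockout (me, 3 arrays, with the motheaten phenotype), mice heterozygous for it (he, 3 arrays) and wild type mice (WT, 4 arrays). All were BALB/c mice aged 17 to 19 days. Cells of several combined lymph node sites were taken with a regulatory T cell isolation kit and were not cultured. RNA was amplified from 20 ng before labelling and hybridisation to Affymetrix arrays. Replicates are labelled biological, but whether each array is a separate animal is not stated, so p-values measure only the spread between these arrays. The knockout affects every cell of the mouse. The labels give neither the lesion nor its place relative to the probes, so signal left in me does not show how much working transcript remained.

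Protein tyrosine phosphatases remove phosphate from tyrosine residues and so set the threshold of antigen receptor and cytokine receptor signals. SHP-1 carries SH2 domains that dock on inhibitory receptors and bring it to its substrates. CD45 (Ptprc) activates the Src-family kinase Lck, whereas PEP (Ptpn22) works with the kinase Csk to restrain it, and TC-PTP (Ptpn2) acts on Janus kinases and STAT proteins. The comparison asks whether transcripts of the other phosphatases differ between genotypes that differ in Ptpn6.

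Levels are log2(intensity + 32) after quantile normalisation, and a difference is between group means on that scale. The arrays formed 2 sets by their correlation, set A (me 1, me 3, he 1, WT 1, WT 2) and set B (me 2, he 2, he 3, WT 3, WT 4), with r of 0.970 to 0.996 within and 0.854 to 0.944 between them. The labels name no such sets, which were found in these same values. Of the set A arrays, me 3 lay nearest set B, with a mean r of 0.929 with that set against 0.880 to 0.882 for the others. The planned fit had no block, and the fit with the array set as a block (the blocked fit) was an alternative to it. Because the sets come from the values being fitted, blocked SEs, intervals and p-values may be too small. Differences are given from both fits where they are compared. Xist and Eif2s3y marked me 1, me 2, WT 2 and WT 4 as male and the others, with all he arrays, as female. Gapdh control signal at its 3′ end over that at its 5′ end was 9.92 to 13.8 in me, 7.88 to 9.71 in he and 7.84 to 9.53 in WT, so me lay above the other genotypes. The same ratio for actin was 12.15 to 13.95 in me, 13.88 to 16.51 in he and 11.99 to 17.71 in WT. For actin, me therefore lay inside the WT range and did not lie above the other genotypes. The part of either ratio in the results below was not tested. Cd4, Foxp3 and 7 other T cell and Treg cell markers were all at or above the array's median level. So were 7 of 9 B cell, 7 of 8 plasma cell and 7 of 10 macrophage and monocyte markers. The counts were 5 of 10 for neutrophil, 5 of 9 for CD8 and NK cell and 2 of 6 for dendritic cell markers. They were 3 of 6 for erythroid cell and platelet and 3 of 7 for stromal and endothelial markers. This level alone therefore does little to set the labelled cell type apart. Cd8a, a chain of the CD8 co-receptor, was at 12.38 in me, 11.34 and 12.45 in he, and 12.10 and 12.13 in WT on the set B arrays, against 7.63 and 7.76 in me, 7.54 in he, and 7.56 and 7.66 in WT on the set A arrays. Cd8b1, the other chain, was at 7.38 to 7.80 on all 10 arrays. The part of the Cd8a signal in the results was not tested. Of the 24 phosphatase probe sets, 17 were at or above the array's median level, where 50% of all probe sets are by construction.

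Ptpn6 transcript was lower in me than in he and lower in he than in WT, at each of its 2 probe sets. At 1460188_at the levels were 8.05, 8.31 and 8.17 in me, 8.75, 8.71 and 8.98 in he, and 9.22, 9.08, 9.62 and 9.13 in WT. At the brighter 1456694_x_at they were 8.84, 9.08 and 9.05 in me, 9.30, 9.33 and 9.54 in he, and 9.55, 9.63, 9.83 and 9.81 in WT. The 3 genotypes did not overlap at either probe set, although he 3 came within rounding of WT 1 at 1456694_x_at (9.54 against 9.55). The x in that name is the maker's mark for a probe set with probes that may also bind other transcripts, and it showed the smaller difference.

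**Figure D1:**
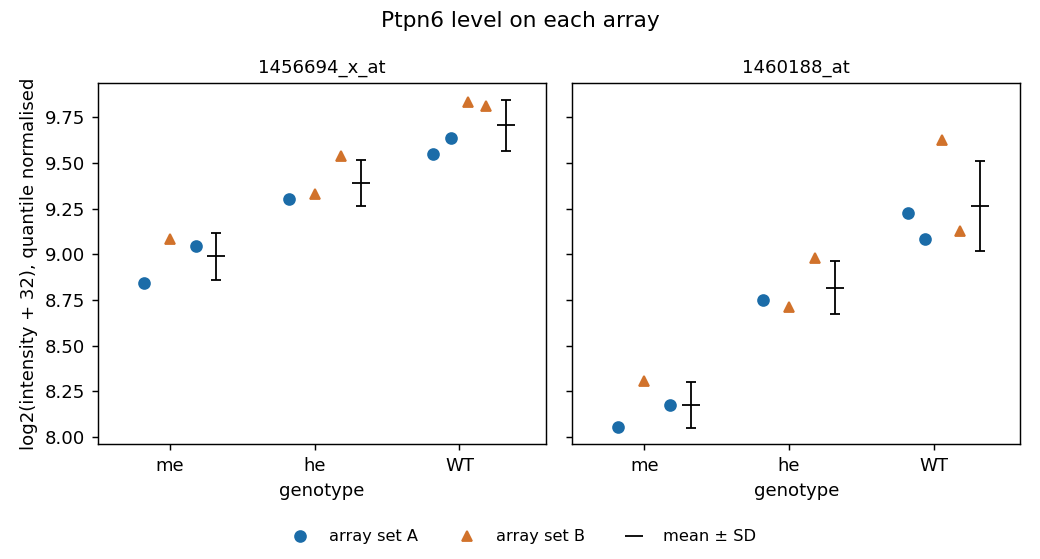
Ptpn6 level, log2(intensity + 32) after quantile normalisation, on each of 10 arrays at both probe sets, by genotype, with array set shown by colour and shape and bars for the mean ± SD (me n = 3, he n = 3, WT n = 4). The genotypes stack without overlap, and at 1460188_at me arrays lie between 8.05 and 8.31 while WT arrays lie between 9.08 and 9.62.

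The size of the Ptpn6 difference was alike in the array sets. In the blocked fit me differed from WT by -1.06 ± 0.12 (log2, SE; 95% interval -1.33 to -0.79) at 1460188_at and by -0.69 ± 0.070 (-0.85 to -0.53) at 1456694_x_at. Within sets A and B the me minus WT difference was -1.04 and -1.07 at 1460188_at, and -0.65 and -0.74 at 1456694_x_at. The differences with no block were -1.09 ± 0.14 and -0.72 ± 0.10. In the blocked limma fit these probe sets had ranks of 5 and 4 by p among 45037, with adjusted p of 0.0908 and 0.0549, and neither passed the threshold of 0.05. The adjusted p with no block was 1 for each. A 2-sided exact permutation test gave p = 0.0571 when me or he was set against WT and p = 0.1 between me and he, in each case the smallest that the group sizes allow.

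Heterozygous cells lay close to midway between the other genotypes on the linear scale and in the blocked fit. On the linear scale, with the constant of 32 taken off again, the mean normalised intensity at 1460188_at was 258 ± 25.4 in me (SD, n = 3), 420 ± 46.6 in he (n = 3) and 590 ± 114 in WT (n = 4). That puts me at 43.8% and he at 71.2% of WT, where the midpoint of me and WT would be 71.9%. At 1456694_x_at me was at 59.2% and he at 79.5% of WT, with the midpoint at 79.6%. The he level minus the midpoint on the log2 scale was 0.051 ± 0.11 (SE) at 1460188_at and -0.00091 ± 0.065 at 1456694_x_at in the blocked fit. Its place moved with the fit. At 1460188_at, he minus WT and me minus he were -0.45 and -0.64 with no block. They were -0.60 and -0.41 with array set and sex as blocks. At 1456694_x_at they were -0.32 and -0.40 with no block, and -0.43 and -0.30 with centring on the array median. The share left in me differed between the probe sets, and the background within the deposited intensity is not known, so these are percentages of signal and not of RNA.

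The other 8 phosphatase genes measured showed no difference from WT of the size seen at Ptpn6, and none of their 22 probe sets passed the test in any comparison. Of the 24 probe sets, 2 had an unadjusted p under 0.05 for me below WT in the blocked fit, both of Ptpn6, where 2.67% of all probe sets did. The same 2 were the members with no overlap between me and WT, against 0.835% of all probe sets for lower me. No member was higher in me by either measure, where the share of all probe sets was 1.64% by p and 0.802% by overlap. After limma's adjustment over all probe sets, 0 members were called between any 2 genotypes in either fit. The share of all probe sets called for lower me than WT was 0.00666% in the blocked fit and 0% with no block, and it was 0% in both fits between he and either other genotype. The graded order of me below he below WT with no overlap was met by 4 of 45037 probe sets (0.00888%), 2 of them Ptpn6, and the opposite order by 0 (0%).

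The 22 other probe sets had me minus WT differences of -0.16 to 0.15 in the blocked fit, with 11 below 0 and 11 above, where 53.7% of all probe sets were below 0. Their median was -0.0028, against -0.0069 for all probe sets. In that fit the 95% intervals of all 22 lay above the interval of each Ptpn6 probe set, and 20 of 22 stayed within 0.5 log2 units of 0, which is a 1.41-fold difference. With no block 22 lay above the interval of 1460188_at and 18 above that of 1456694_x_at, and 16 stayed within 0.5. The lowest bound of any blocked interval was -0.52, at 1422045_a_at of Ptpn12, and the highest was 0.60, at 1440165_at of Ptprc. These intervals show how closely 3 me and 4 WT arrays place each difference, and differences inside them remain possible. They are not a limit of detection, since even Ptpn6 at 1460188_at (-1.06 in the blocked fit) did not pass the test.

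**Figure D2:**
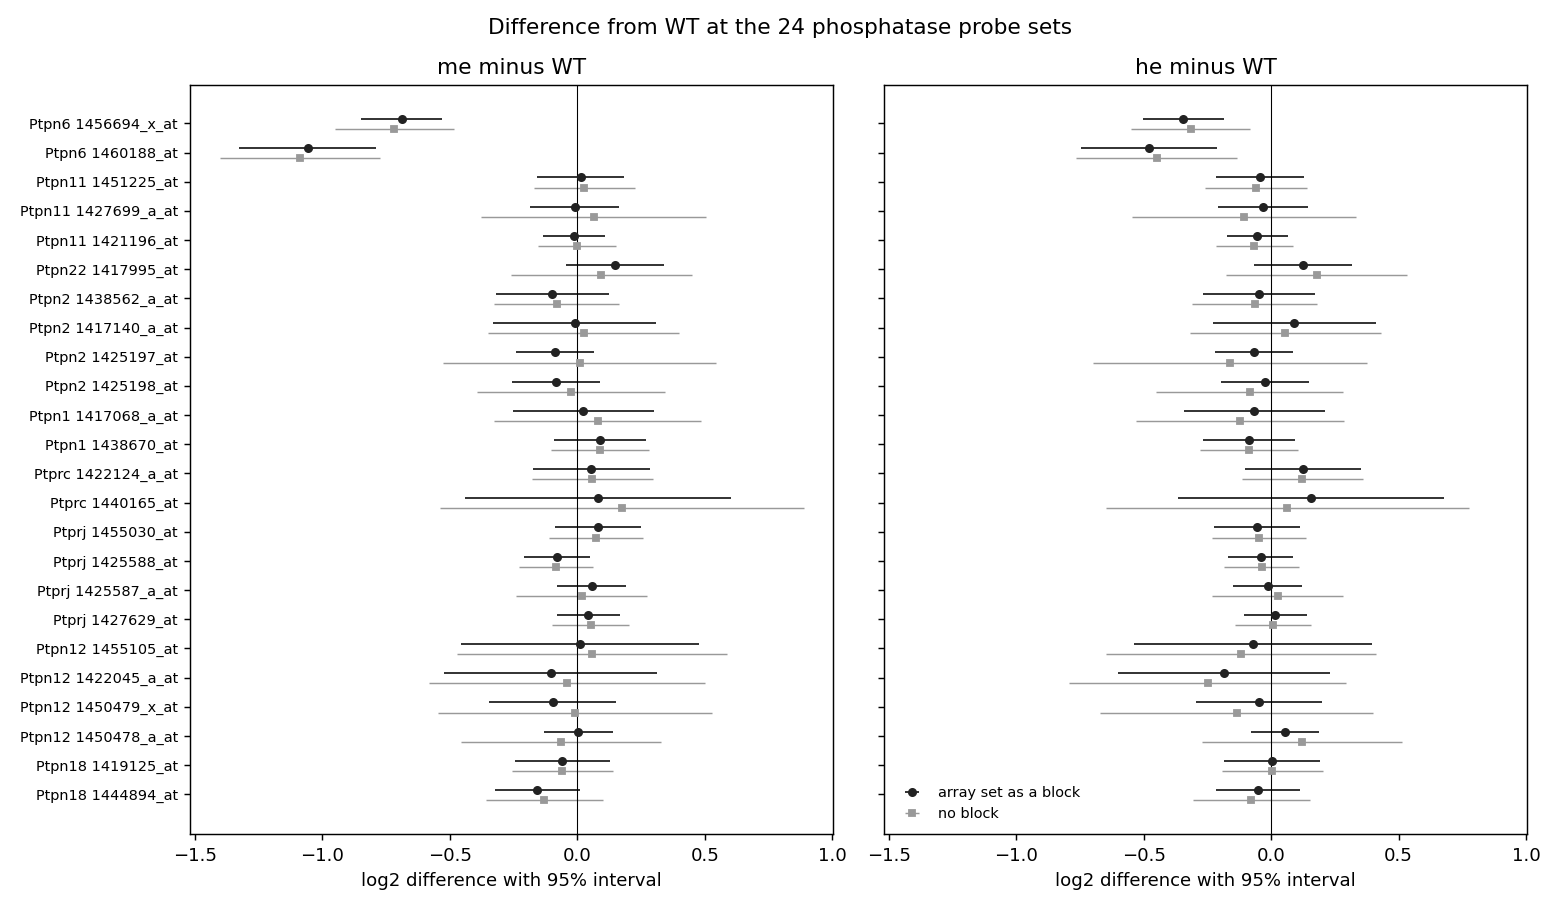
Log2 difference with its 95% interval at the 24 probe sets, me minus WT on the left and he minus WT on the right, in the blocked fit (black) and with no block (grey). The 2 Ptpn6 probe sets stand left of 0 in both panels (me minus WT -0.69 and -1.06), and the intervals of the 22 others include 0.

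Ptpn11 encodes SHP-2, the closest relative of SHP-1, which mostly promotes growth factor and cytokine signals. Its brightest probe set, 1451225_at, had levels of 10.18, 10.12 and 10.27 in me, 10.21, 10.13 and 9.96 in he, and 10.20, 10.14, 10.28 and 10.02 in WT. The me range lay inside that of WT. The blocked me minus WT difference was 0.014 ± 0.076 (SE), with a 95% interval of -0.16 to 0.19. The other 2 Ptpn11 probe sets gave -0.010 ± 0.077 and -0.013 ± 0.053, and neither they nor 1451225_at passed the test.

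Ptprc encodes CD45, the abundant receptor phosphatase of blood cells that activates Lck. At 1422124_a_at its levels were 13.55, 13.27 and 13.28 in me, 13.47, 13.47 and 13.35 in he, and 13.43, 13.08, 13.35 and 13.37 in WT. The genotypes overlapped, and the blocked me minus WT difference was 0.056 ± 0.10. With no normalisation between arrays or with centring on the array median, both with no block, its sign turned (-0.17 and -0.15). The second probe set, 1440165_at, spread far more, at 9.46 to 10.36 in me, 9.52 to 9.99 in he and 8.96 to 10.32 in WT. Its blocked difference of 0.082 ± 0.23 had the widest interval of all members, -0.44 to 0.60.

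Ptprj encodes CD148, another receptor phosphatase, which acts on Src-family kinases and is prominent in myeloid and B cells. All 4 of its probe sets lay below the median level of the array. At the brightest, 1455030_at, the levels were 7.76, 7.58 and 7.74 in me, 7.47, 7.69 and 7.54 in he, and 7.61, 7.51, 7.70 and 7.64 in WT. The me minus WT difference there was 0.081 ± 0.074 in the blocked fit, 0.19 within set A and -0.096 within set B. The other 3 Ptprj probe sets gave -0.080 to 0.057. The lowest, 1425588_at (-0.080 ± 0.057), did not pass the test.

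Ptpn22 encodes PEP, which pairs with Csk to damp Lck and ZAP-70 after antigen receptor engagement. Its level at 1417995_at was 9.89, 10.43 and 10.13 in me, 9.94, 10.34 and 10.43 in he, and 9.91, 10.02, 10.22 and 10.08 in WT. In each genotype the highest value came from set B. The blocked me minus WT difference of 0.15 ± 0.085 was the highest among the members (95% interval -0.045 to 0.34, limma adjusted p = 0.989), and he minus WT was 0.12 ± 0.085. With no block the me minus WT difference was 0.094 with all arrays and -0.048 without me 2.

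Ptpn12 and Ptpn18 encode the other phosphatases of the PEST group, PTP-PEST and PTP-HSCF, which act on cytoskeletal adaptors and on Csk partners. Ptpn12 at 1455105_at had levels of 9.41, 9.19 and 9.38 in me, 9.54, 9.41 and 8.50 in he, and 9.53, 9.15, 9.33 and 9.08 in WT. The low he array was he 3, which was also the lowest array at 1422045_a_at (8.33) and 1450479_x_at (7.46) but not at 1450478_a_at (8.11). The he minus WT difference at 1455105_at was -0.12 with all arrays and 0.21 without he 3, and at 1422045_a_at it was -0.25 and 0.057 (no block). For me minus WT the 4 Ptpn12 probe sets gave blocked differences of -0.10 to 0.010. Ptpn18 at 1419125_at had 10.46, 10.56 and 10.35 in me, 10.54, 10.59 and 10.43 in he, and 10.64, 10.46, 10.59 and 10.37 in WT. These ranges overlapped, and the blocked me minus WT difference was -0.058 ± 0.083. The dimmer Ptpn18 probe set, 1444894_at, gave -0.16 ± 0.073, the lowest value outside Ptpn6 (limma adjusted p = 0.989), with -0.28 in set A and 0.045 in set B.

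Ptpn2 encodes TC-PTP, which dephosphorylates Janus kinases and STAT proteins, and Ptpn1 encodes the related PTP1B. At 1438562_a_at Ptpn2 had levels of 11.04, 10.92 and 11.11 in me, 11.16, 11.08 and 10.88 in he, and 11.21, 11.00, 11.27 and 10.93 in WT. The genotypes overlapped, with a blocked me minus WT difference of -0.098 ± 0.097. The other 3 Ptpn2 probe sets differed by -0.086 to -0.010. Ptpn1 at 1417068_a_at had 10.62, 10.50 and 10.83 in me, 10.67, 10.43 and 10.25 in he, and 10.50, 11.05, 10.38 and 10.36 in WT, where WT 2 was the highest array of all. Its blocked me minus WT difference was 0.025 ± 0.12, and at 1438670_at it was 0.089 ± 0.079.

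**Figure D3:**
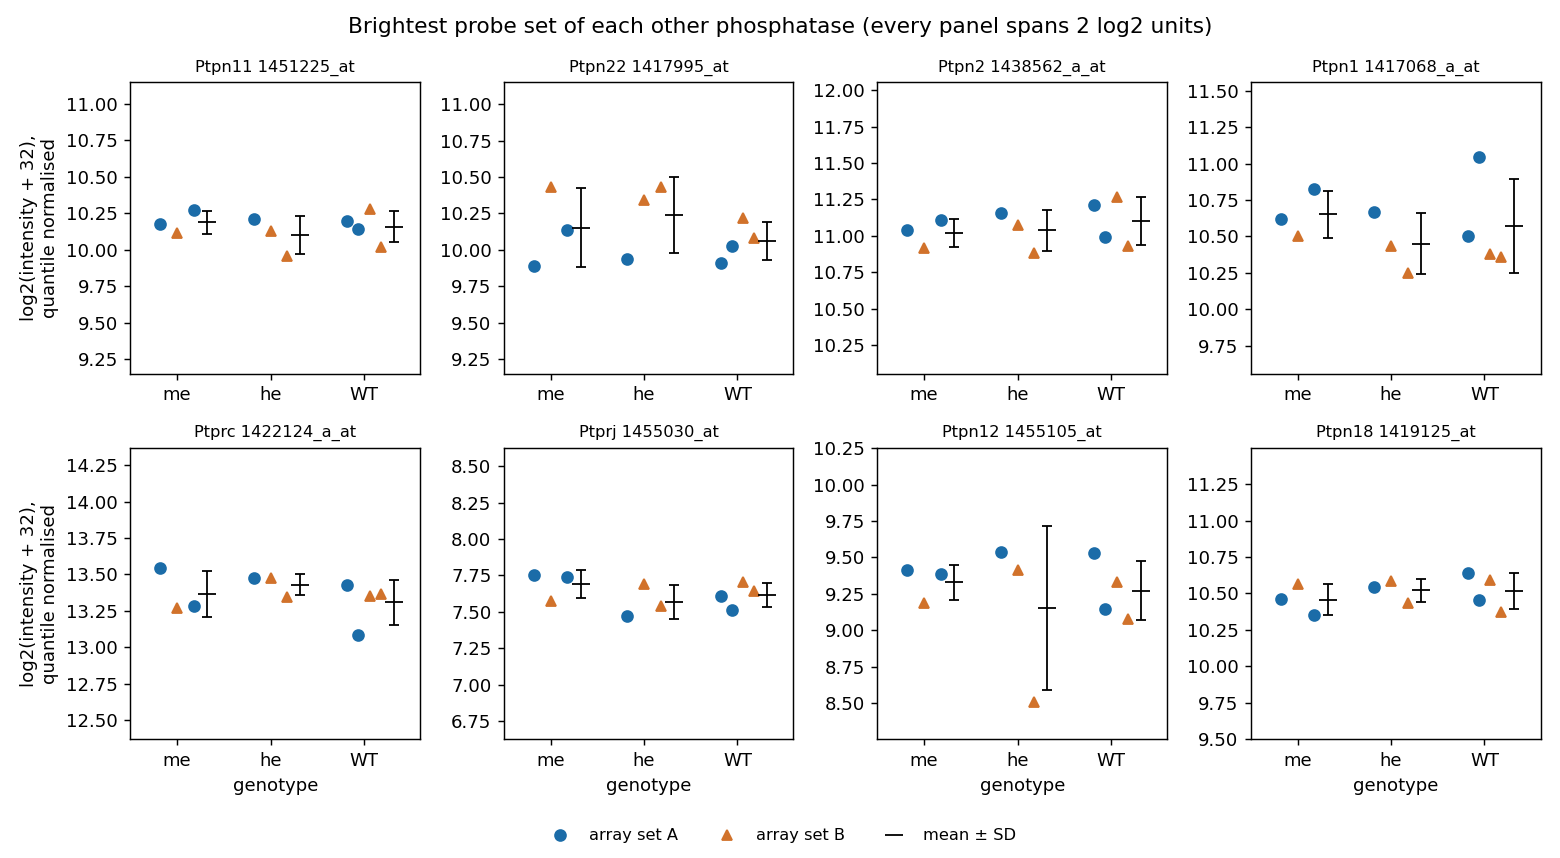
Level, log2(intensity + 32) after quantile normalisation, on each array at the brightest probe set of the 8 other phosphatase genes measured, by genotype (me n = 3, he n = 3, WT n = 4), with array set by colour and shape and bars for the mean ± SD. Every panel spans 2 log2 units, the genotypes overlap in all 8, and he 3 sits apart at Ptpn12 (8.50).

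The 2 Ptpn6 probe sets were the members with an unadjusted limma p under 0.05 for he below WT in the blocked fit, where 1.33% of all probe sets were, and the members with no overlap between he and WT, against 0.573%. Between he and WT the Ptpn6 difference was -0.48 ± 0.12 at 1460188_at and -0.35 ± 0.070 at 1456694_x_at in the blocked fit. Within set A these were -0.40 and -0.29, and within set B -0.53 and -0.39. The 22 other probe sets ran from -0.18 to 0.16, with 15 below 0 (14 with no block), where 51.1% of all probe sets were below 0 (54% with no block). In the blocked fit 10 of their 95% intervals lay above that of 1460188_at and 8 above that of 1456694_x_at, against 1 and 0 with no block, so for he most of them could not be set apart from Ptpn6 by interval. With no normalisation between arrays 19 of the 22 were below 0, and with centring on the array median 21 were. Their median difference with no block was -0.061 after quantile normalisation, -0.100 with no normalisation and -0.12 with centring, against -0.0090, -0.012 and -0.032 for all probe sets. Between me and he, Ptpn6 differed by -0.58 ± 0.13 and -0.34 ± 0.077, and the 22 others by -0.11 to 0.17. The highest of these was Ptpn1 at 1438670_at, 0.17 ± 0.087 (limma adjusted p = 0.999). Ptpn6 alone among the members had an unadjusted limma p under 0.05 for lower me (1.53% of all probe sets) or no overlap (1.1%). The he and me comparisons share the WT arrays.

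Other phosphatases and the signalling genes around them were then counted. Each list below holds 1 probe set a gene, the brightest. Of 25 other classical tyrosine phosphatases measured, 11 were higher and 14 lower in me than in WT in the blocked fit (median -0.018). None (0) had an unadjusted limma p under 0.05 in either fit, where 4.31% of all probe sets did in the blocked fit and 0.626% with no block. Ptpn13, a large phosphatase linked to FAS, had the smallest p of them with no block, at 8.83 in me and 9.09 in WT (blocked difference -0.26 ± 0.14). Ptprv differed by 0.13 ± 0.088, Ptpro by 0.090 ± 0.062 and Ptprg by -0.068 ± 0.041. Between he and WT, 8 of the 25 were higher and 17 lower.

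Among 21 dual-specificity and low molecular weight phosphatases, 12 were higher and 9 lower in me (blocked median 0.011), and 1 in each direction had an unadjusted p under 0.05 in the blocked fit, where 1.64% of all probe sets did for higher and 2.67% for lower me. Dusp16, a phosphatase of JNK and p38 kinases, averaged 8.02 in me and 7.79 in WT (blocked difference 0.29 ± 0.072, limma adjusted p = 0.836). Cdc25b, an activator of cyclin-dependent kinases, differed by 0.50 ± 0.25, Acp1 by 0.11 ± 0.076 and Cdc25a by -0.075 ± 0.10. Of 21 kinases and adaptors at the antigen receptor, 11 were higher and 10 lower (median 0.043), with 1 above and 3 below at that p. Cd247, the zeta chain of the CD3 complex, differed by -0.28 ± 0.071 (limma adjusted p = 0.836), Fyb by 0.24 ± 0.090, Lcp2 (SLP-76) by 0.20 ± 0.089 and Lat by -0.15 ± 0.071. Csk, the kinase partner of PEP, differed by -0.23 ± 0.087 (limma adjusted p = 0.989) and was chosen after its values were seen.

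Of 10 Janus kinases and STATs, 7 were higher and 3 lower in me (median 0.11), with 2 above at an unadjusted limma p under 0.05 in the blocked fit, where 1.64% of all probe sets were. Stat4, which transmits interleukin 12 signals, differed by 0.45 ± 0.16, Tyk2 by 0.19 ± 0.089, Stat5b by 0.13 ± 0.12 and Jak3 by -0.064 ± 0.070. The 2 at that p were Stat4 and Jak2 (0.23 ± 0.079), and Jak2 was named after its values were seen. Of 19 binding partners of the phosphatases, 11 were higher and 8 lower (median 0.048), with 3 above at that p, against the same 1.64%. Cd5, Cd22, Btla and Klrg1 are inhibitory receptors of lymphocytes. Cd5 differed by 0.31 ± 0.088, Cd22 by 0.43 ± 0.15, Btla by 0.22 ± 0.14 and Klrg1 by 0.55 ± 0.24. No gene of these 5 lists passed after adjustment in either fit.

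**Figure D4:**
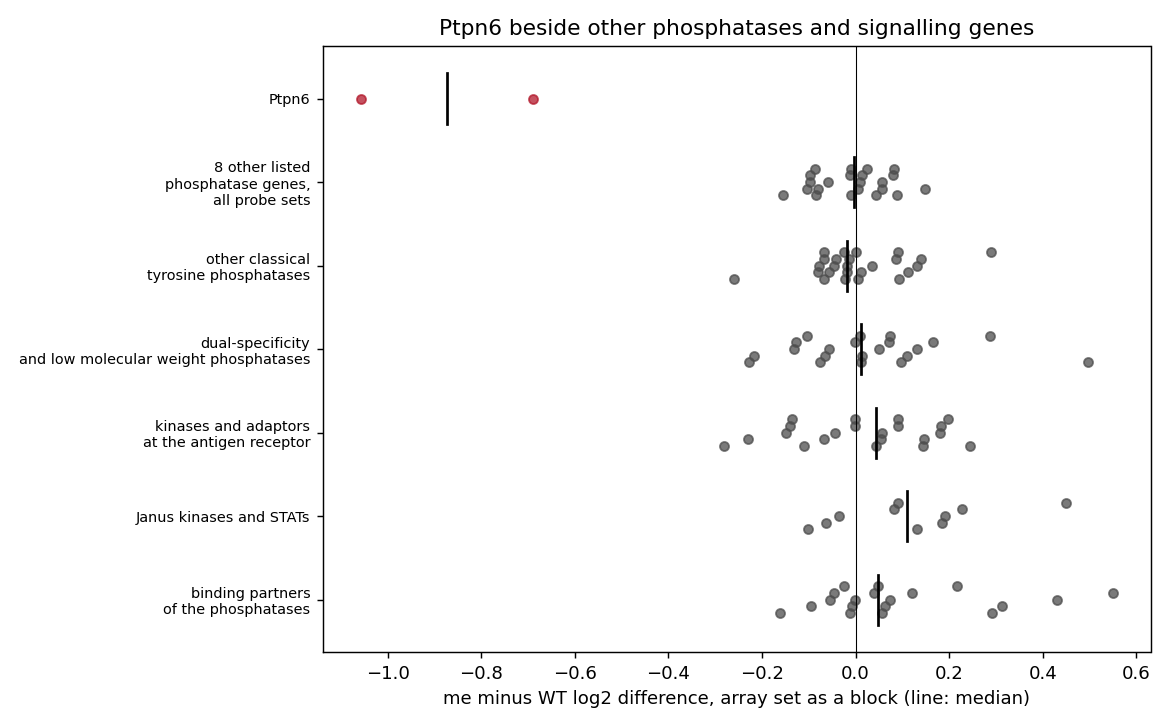
Log2 difference of me minus WT in the blocked fit, 1 point for each probe set (the 2 rows at the top) or gene (the 5 lists), with a line at the median. The 2 Ptpn6 points (-0.69 and -1.06) lie below every other point, and the medians of the other rows run from -0.018 to 0.11.

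Cell types other than T cells express several of these phosphatases, Ptpn6 and Ptprj among them. Markers of such cells were therefore set beside the results, as summed normalised intensity over each list. Genes of a list are counted where me differed from WT at an unadjusted limma p under 0.05, which in the blocked fit held for 1.64% of all probe sets for higher and 2.67% for lower me, and with no block for 0.331% and 0.295%. Plasma cell markers summed to 6740 to 16880 in me, 5281 to 6713 in he and 4732 to 6699 in WT. The lowest me sum was that of me 2. Of 8 genes, 3 were higher in me at that p in each fit (Jchain, Ighm and Mzb1). Their blocked differences were 2.13 ± 0.36, 1.48 ± 0.26 and 0.29 ± 0.094 (SE). In that fit 4 of the 8 genes lay below WT, and 0 passed after adjustment. Macrophage and monocyte markers summed to 6315 to 6932 in me, 5867 to 6684 in he and 5504 to 6414 in WT, with 3 of 10 genes higher in the blocked fit (Ly86, Csf1r and Lyz2) and 1 with no block. Neutrophil markers summed to 1553 to 2248 in me, 1531 to 1960 in he and 1493 to 1820 in WT, with 4 of 10 genes higher in the blocked fit (S100a8, S100a9, Mmp8 and Mpo) and 2 with no block. B cell markers summed to 1627 to 2048 in me, 1559 to 2178 in he and 1587 to 2173 in WT, with 2 of 9 genes higher in the blocked fit (Ms4a1 and Cd22; Cd22 is also counted among the binding partners above), 1 with no block (Ms4a1), and 1 lower in each fit (Blk). CD8 and NK cell markers summed to 2769 to 7961 in me, 2838 to 8163 in he and 2632 to 6617 in WT, with the higher sums of me and WT in set B and 1 of 9 genes higher in each fit (Eomes). Dendritic cell markers (6 genes) summed to 885 to 936 in me, 888 to 928 in he and 874 to 1024 in WT. Erythroid cell and platelet markers (6 genes) summed to 925 to 1000.3 in me, 912 to 1009.6 in he and 905 to 1173 in WT, and stromal and endothelial markers (7 genes) to 1032 to 1443 in me, 1061 to 1449 in he and 1072 to 1571 in WT. In these 3 lists 0 genes reached that p in either fit. T cell and Treg cell markers summed to 18644 to 21113 in me, 17384 to 18912 in he and 16152 to 17637 in WT, with 1 of 9 genes higher in each fit (Cd5). An array intensity has no true zero, so no marker could be called absent. The part of such cells in the phosphatase values was not tested, and in bulk RNA fewer cells of a type and less RNA per cell cannot be told apart.

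The genes most like Ptpn6 across the arrays were picked by Pearson's r over 10 arrays, each value minus the mean of its array set, among 18810 candidate probe sets no dimmer than the array's median. They were Tesc (r = 0.956, or 0.709 without that subtraction), Cops7a (0.956 and 0.780), Ift27 (0.937 and -0.137), Hoxc6 (0.933 and 0.882) and Socs2 (0.930 and 0.419). These values describe the best of many on 10 arrays that share genotype, array set and normalisation. In the GRCm38.p6 RefSeq annotation Cops7a lies on the chromosome of Ptpn6 with 15 protein-coding genes between them. By the same measure the other phosphatase probe sets ran from -0.451 for Ptpn22 to 0.640 for 1425588_at of Ptprj.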

How the data were processed

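The authors deposited 1 intensity per probe set and array on a linear scale, for 10 arrays, in a table with no sample unmatched. How probes were summarised, corrected for background and scaled is "not given in the sources used here". The median deposited intensity of an array lay between 148 and 188. RNA input and amplification are per the labels' protocols.

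Of 45101 probe sets, 64 controls were left out. The platform annotation named 1 gene for 34945 of the rest, several for 932 and none for 9160. Symbols were updated by Entrez ID. Values were transformed as log2(intensity + 32) and quantile normalised. Genotypes were compared with limma 3.58.1 in R 4.3.3 (lmFit and eBayes) on all 10 arrays, with 7 residual degrees of freedom, or 6 with array set as a block. P-values were adjusted by Benjamini-Hochberg over all 45037 probe sets, with a threshold of 0.05. Array sets were cut from average-linkage clustering of correlations. The number of arrays limits the precision. The fit was also run on simulated data with independent noise and the array sets taken as known. That run cannot show whether blocked SEs are too small.

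The phosphatase genes, the gene lists and the tests were chosen with earlier results of these data known. The rule names every probe set of the 10 genes, up to 4 genes a list by the smallest me against WT p with no block, and the 5 genes most like Ptpn6. The alternatives were blocks (array set, also with me 3 in set B or with sex; replicate number), only the 2 genotypes compared, only probe sets above the median level, a smaller and a larger pseudocount, no normalisation or median centring, an intensity trend with a robust prior, weights for arrays, thresholds of 0.1 and 0.01, and dropping each array.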

Additional observations from a re-analysis of the deposited data

How the results depend on the processing

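Ptpn6 kept its direction in every comparison and setting run, and 0 other phosphatase probe sets were called in any setting with converged estimates. With all arrays and the planned settings the me minus WT difference at 1460188_at ran from -1.18 (smaller pseudocount) to -0.89 (larger pseudocount). Of 66 differences of the 22 other probe sets, 11 changed sign in the blocked fit, 15 with sex as well, 14 with centring, 11 with no normalisation, 7 with the replicate block and 6 with me 3 in set B, and 0 with either pseudocount. The array set block called 3 probe sets between me and WT, against 0 with no block. Leaving out 1 array gave 0 to 2 probe sets called for me against WT, for me against he, for he against the mean of WT and me and for the F test. Blocked by array set too, a choice made after seeing the data, it gave 0 to 5 for me against WT, 0 to 2 for the other 3, and 0 to 1 phosphatase probe sets for me against WT, which was 1456694_x_at of Ptpn6 without he 2 (adjusted p = 0.0462, range over left-out arrays 0.0462 to 0.440). Array weights did not converge, with a weight of 26.6 for me 3 and 27288 probe sets called between me and he, and their values are not used.

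Correlations of same-numbered deviations followed the array sets. They were 0.688 to 0.941 for pairs within a set and -0.873 to -0.397 for pairs across the sets. They therefore cannot show whether arrays of the same replicate number were paired. The replicate block called 0 probe sets in limma. Values given here are some of the me minus WT and he minus WT differences that changed sign, and changes of me minus he are not listed. With the replicate block, me minus WT was -0.018 and -0.020 at Ptpn11 (1451225_at and 1427699_a_at), -0.051 and -0.079 at Ptpn2 (1417140_a_at and 1425197_at) and -0.0070 at Ptpn12 (1455105_at), and he minus WT was -0.020 at Ptpn2 (1417140_a_at) and -0.043 at Ptpn18 (1419125_at). In the fit blocked by array set, me minus WT was -0.010 at Ptpn11 (1427699_a_at), -0.010 and -0.086 at Ptpn2 (1417140_a_at and 1425197_at) and 0.0047 at Ptpn12 (1450478_a_at). With me 3 in set B it was 0.019 and 0.077 at Ptpn12 (1422045_a_at and 1450479_x_at). With sex as a further block, me minus WT was -0.014 at Ptpn11 (1427699_a_at) and -0.11 at Ptpn2 (1425197_at), and he minus WT was -0.046 and 0.0067 at Ptpn2 (1417140_a_at and 1425197_at) and -0.028 at Ptpn18. Centring on the array median gave -0.15 at Ptprc (1422124_a_at) for me minus WT, and for he minus WT -0.011 at Ptpn22, -0.14 at Ptpn2 (1417140_a_at), -0.14 and -0.099 at Ptprc (1422124_a_at and 1440165_at) and -0.19 at Ptpn18. With no normalisation, me minus WT was -0.015 at Ptpn2 (1425197_at) and -0.17 at Ptprc (1422124_a_at), and he minus WT was -0.12 at Ptpn2 (1417140_a_at), -0.12 and -0.079 at Ptprc (1422124_a_at and 1440165_at) and -0.17 at Ptpn18. The cause of these changes was not tested.

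Leaving out each array in turn in the fit with no block moved further uncalled differences across 0. In the blocked fit some of these still crossed 0, as me minus WT did at 1417068_a_at of Ptpn1 (-0.079 to 0.16). Others did not, as me minus WT at Ptpn22 (0.099 to 0.22). The ranges that follow are those with no block. For me minus WT the ranges were -0.0083 to 0.23 at Ptpn1 (1417068_a_at), -0.051 to 0.23 (1427699_a_at) and -0.018 to 0.069 (1451225_at) at Ptpn11, -0.11 to 0.080 (1422045_a_at), -0.25 to 0.041 (1450478_a_at), -0.14 to 0.15 (1450479_x_at) and -0.0066 to 0.14 (1455105_at) at Ptpn12, -0.051 to 0.14 (1417140_a_at) and -0.14 to 0.20 (1425197_at) at Ptpn2, -0.048 to 0.22 at Ptpn22, and -0.033 to 0.10 (1422124_a_at) and -0.075 to 0.39 (1440165_at) at Ptprc. For he minus WT they were -0.23 to 0.037 at Ptpn1, -0.21 to 0.016 (1427699_a_at) and -0.11 to 0.015 (1451225_at) at Ptpn11, -0.46 to 0.057 (1422045_a_at), -0.35 to 0.076 (1450479_x_at) and -0.30 to 0.21 (1455105_at) at Ptpn12, -0.044 to 0.049 at Ptpn18 (1419125_at), -0.033 to 0.17 (1417140_a_at) and -0.12 to 0.015 (1438562_a_at) at Ptpn2, and -0.19 to 0.27 at Ptprc (1440165_at).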

Other observations

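Array set moved several phosphatase probe sets more than genotype did. Set B minus set A was -0.57 and -0.35 (log2) at 1425197_at and 1425198_at of Ptpn2, -0.54 at 1440165_at of Ptprc and 0.32 at Ptpn22. Probe sets of Ptpn12 went opposite ways, with -0.52, -0.40 and -0.30 at 3 of them and 0.42 at 1450478_a_at. Since the array sets come from this very table, these values describe it and were not tested.

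Ptpn22 in me and he lay above WT by 0.28 and 0.24 within set B, against 0.045 and -0.027 within set A. In set B its levels were 10.43 in me, 10.34 and 10.43 in he, and 10.22 and 10.08 in WT. In set A they were 9.89 and 10.13 in me, 9.94 in he, and 9.91 and 10.02 in WT. Whether the sets differ in this was not tested.

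The other 2 probe sets with the graded order of Ptpn6 were 1441081_a_at of 1110038B12Rik and 1450292_a_at of Hormad1, a gene of meiotic chromosomes, and they were chosen after their values were seen. The first had levels of 10.16, 10.16 and 10.09 in me, 10.35, 10.35 and 10.24 in he, and 10.43, 10.63, 10.37 and 10.46 in WT. Hormad1 lay below the median level of the array, and its blocked me minus WT difference was -0.099.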
